A study of Homo sapiens with 3 samples.

Results

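The 46 genes here are a chosen part of those linked to the transition from G1 to S phase and the DNA copying that follows. They are described in T47D cells given estradiol or the peptide ERα17p. The 46 symbols came from a list of origin licensing, replication fork, nucleotide supply, chromatin and G1 to S control genes. All 46 were measured, by 90 probe sets annotated to exactly 1 of these genes, out of 19775 genes and 41091 such probe sets on the arrays. A value of a gene is the mean over its probe sets. The list was made by gene function, although results of these arrays were known by then.

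T47D is an established human breast cancer line with estrogen receptor α. Cells were kept for 4 h in medium with 10% charcoal-stripped serum, which is depleted of steroid hormones, and then for 3 h with ethanol vehicle at 0.1%, with estradiol at 1 µM or with ERα17p at 1 µM. Estradiol is the natural ligand of the receptor, and ERα17p is a synthetic peptide taken from the receptor's own sequence. Each condition had 1 Affymetrix HG-U133 Plus 2 array, so there was no spread between cultures, no test and no p-value. The ethanol share was given for the vehicle cells alone, and other times of the series' time course are not analysed here.

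Before S phase, the origin recognition complex together with CDC6 and CDT1 loads the MCM helicase on DNA, and CDC45 and the GINS complex then turn the loaded helicase into a working fork. Clamp loaders place the sliding clamp PCNA, polymerases α, δ and ε copy the strands, and FEN1 and LIG1 join the fragments of the lagging strand. Many of these genes are transcribed under E2F factors, which cyclin E and its kinase release from the retinoblastoma protein. In breast cancer cells with the receptor, estradiol is known to drive quiescent cells into S phase over many hours. RNA was taken from whole cultures, so fewer cells in a given phase and less RNA per cell cannot be told apart.

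The deposited values lay around 0 on each array, relative to a baseline per probe set that no source used here names. They carry no absolute level, so levels cannot be compared between genes, and the cell type could not be checked against its markers. Differences between arrays are read as log2 differences, an assumption from the RMA method, and fold sizes hold only if that base and 1 common baseline apply. A gene is counted as higher or lower here when it differs at least 1.5-fold, a log2 difference of 0.585. An error given as SD is taken over a gene's n probe sets and covers no difference between cultures. Over all probe sets other than controls the SD was 0.434 on the vehicle array, against 0.158 with estradiol and 0.166 with ERα17p. Control probe sets also set the vehicle array apart, with the 3′ less the 5′ set of ACTB at 0.52 on the vehicle array, −0.29 with estradiol and −0.17 with ERα17p. The mean of the 18S ribosomal RNA sets was −1.76, 0.11 and −0.01 on the same arrays. These vehicle differences go with every comparison with vehicle below, and their part in the results was not tested.

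The promoters are shown first. The windows printed below were chosen from both ends of the differences from the vehicle array, so their contrast in sign comes from that choice. Promoters were taken from RefSeq, build GRCh38.p14, as 250 bases before to 50 bases after the first listed start, and 41 of the 46 genes were matched there, leaving MCM4, MCM5, DSCC1, CCNE2 and E2F8. The letters TTTCCCGC, TTTCGCGC, TTTGCCGC and TTTGGCGC, forms of the E2F motif, were searched on both strands, and matches of different forms may overlap. At least 1 was found in 21 of the 41 promoters (51.2%), against 671 of 15381 promoters (4.36%) of all genes on the arrays. The letters CCAAT, the binding motif of NF-Y, were found on either strand in 23 of 41 (56.1%) against 36.1% of all. The full palindromic estrogen response element, searched with any 3 bases between its arms, was found in 0 of 41 and in 0.039% of all. The median GC content was 65.7% for the 41 promoters and 63% for all. The list was chosen for function, and the matches describe letters, not binding. The first 3 windows below belong to the genes with the most negative mean difference from vehicle among those with the letters wholly upstream of the start, and the last 3 to those with the most positive. Each window holds the 200 bases before the start, 5′ to 3′ on the strand of the gene, with the E2F letters of either strand in capitals.

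CDT1, chr16:88803589-88803788, plus strand: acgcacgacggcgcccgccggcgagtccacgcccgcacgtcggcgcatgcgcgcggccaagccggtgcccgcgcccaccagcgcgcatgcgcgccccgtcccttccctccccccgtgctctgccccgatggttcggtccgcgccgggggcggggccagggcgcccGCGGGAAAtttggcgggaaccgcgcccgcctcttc

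MCM7, chr7:100101398-100101597, minus strand: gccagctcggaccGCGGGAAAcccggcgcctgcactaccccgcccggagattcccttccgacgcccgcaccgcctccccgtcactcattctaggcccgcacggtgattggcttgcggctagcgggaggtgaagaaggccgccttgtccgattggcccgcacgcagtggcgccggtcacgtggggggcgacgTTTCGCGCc

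E2F1, chr20:33686386-33686585, minus strand: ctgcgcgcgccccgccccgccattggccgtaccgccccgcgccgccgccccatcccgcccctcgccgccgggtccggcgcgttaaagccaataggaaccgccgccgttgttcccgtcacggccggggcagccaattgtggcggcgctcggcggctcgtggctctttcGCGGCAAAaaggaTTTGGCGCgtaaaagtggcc

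RFC3, chr13:33817949-33818148, plus strand: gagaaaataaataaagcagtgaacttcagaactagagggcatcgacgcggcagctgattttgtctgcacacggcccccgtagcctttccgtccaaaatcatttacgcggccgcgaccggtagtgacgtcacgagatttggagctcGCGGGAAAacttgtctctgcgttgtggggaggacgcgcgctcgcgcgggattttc

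TYMS, chr18:657453-657652, plus strand: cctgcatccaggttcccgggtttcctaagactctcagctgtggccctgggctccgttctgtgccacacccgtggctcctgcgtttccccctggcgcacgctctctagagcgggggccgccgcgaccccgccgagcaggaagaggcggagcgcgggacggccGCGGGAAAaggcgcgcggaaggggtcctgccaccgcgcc

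POLA1, chrX:24693718-24693917, plus strand: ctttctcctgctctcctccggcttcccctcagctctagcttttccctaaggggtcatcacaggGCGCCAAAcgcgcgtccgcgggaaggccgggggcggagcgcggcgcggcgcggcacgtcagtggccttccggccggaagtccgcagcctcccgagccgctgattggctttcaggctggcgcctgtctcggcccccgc

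CDT1, E2F1 and MCM7 were lower on both treated arrays than on the vehicle array by at least 1.5-fold, with the E2F letters in their windows. RFC3, with the same letters, was higher by more than 1.5-fold on both. Without 1 probe set of a kind open to cross-hybridisation, RFC3 differed by 0.55 with estradiol, under the threshold. CDT1 and MCM7 had only probe sets of such kinds. TYMS and POLA1 had positive differences under 1.5-fold, and 1 of the 3 TYMS probe sets was negative in both comparisons. In the CDT1 window the letters begin 35 bases before the start, in RFC3 55 bases and in TYMS 39 bases, all as TTTCCCGC on the opposite strand. MCM7 carries them 187 and 9 bases before the start, E2F1 at 33 and 20 bases, and POLA1 at 137 bases.

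Against the vehicle array, the replication genes did not move as a block: ORC1, CDT1, MCM5 and MCM7 of the licensing machinery, GINS3, POLD1 and E2F1 were at least 1.5-fold lower on both treated arrays, while the clamp loader subunits RFC3 and RFC5, POLE2, SLBP, CCNE2 and BRIP1 were at least 1.5-fold higher on both. Some of these calls rest on probe sets open to cross-hybridisation. Without such sets, CCNE2 differed by −0.08 and RFC3 by 0.55 with estradiol, neither past the threshold. SLBP, CDT1 and MCM7 then had no value. With estradiol, 6 of 46 genes were at least 1.5-fold higher, where 6.48% of all genes were, and 7 were lower, where 8.42% were. With ERα17p, 7 were higher (6.88% of all genes) and 8 lower (8.76%). As shares of the 46 these are 13.0% and 15.2% for estradiol, and 15.2% and 17.4% for ERα17p. At 2-fold, 3 were higher (1.57% of all genes) and 3 lower (1.63%) with estradiol, and 5 higher (1.9%) and 3 lower (1.87%) with ERα17p. With the higher array at least 25% above the lower, 12 were higher (16.4%) and 17 lower (19.8%) with estradiol, and 11 higher (16.6%) and 14 lower (19.2%) with ERα17p. Past 1.5-fold on both treated arrays were 6 genes among the higher, against 4.98% of all genes, and 7 among the lower, against 6.7%. The median difference over the 46 genes was −0.17 with estradiol and −0.11 with ERα17p, beside −0.004 and 0.001 over all genes. Above 0 were 15 of 46 genes with estradiol, or 32.6% against 49.4% of all genes. With ERα17p it was 20 of 46, or 43.5% against 50.1%. Both comparisons share the vehicle array and are therefore not independent of each other. Below, the value of a gene is its value on an array, and paired differences are log2 differences from vehicle, for estradiol first and ERα17p second. The 21 genes with the E2F letters had a median difference from vehicle of −0.22 with estradiol and −0.19 with ERα17p. The 20 genes without them had medians of −0.20 and −0.11. With the letters 4 genes were lower and 2 higher with estradiol, and without them 2 were lower and 3 higher. With ERα17p these counts were 5 and 2 with the letters, and 2 and 3 without. MCM5, CCNE2 and E2F8 had no matched promoter and are not in this split. The matching shares over all genes with and without the letters were not computed, so the split has no background.

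**Figure D1:**
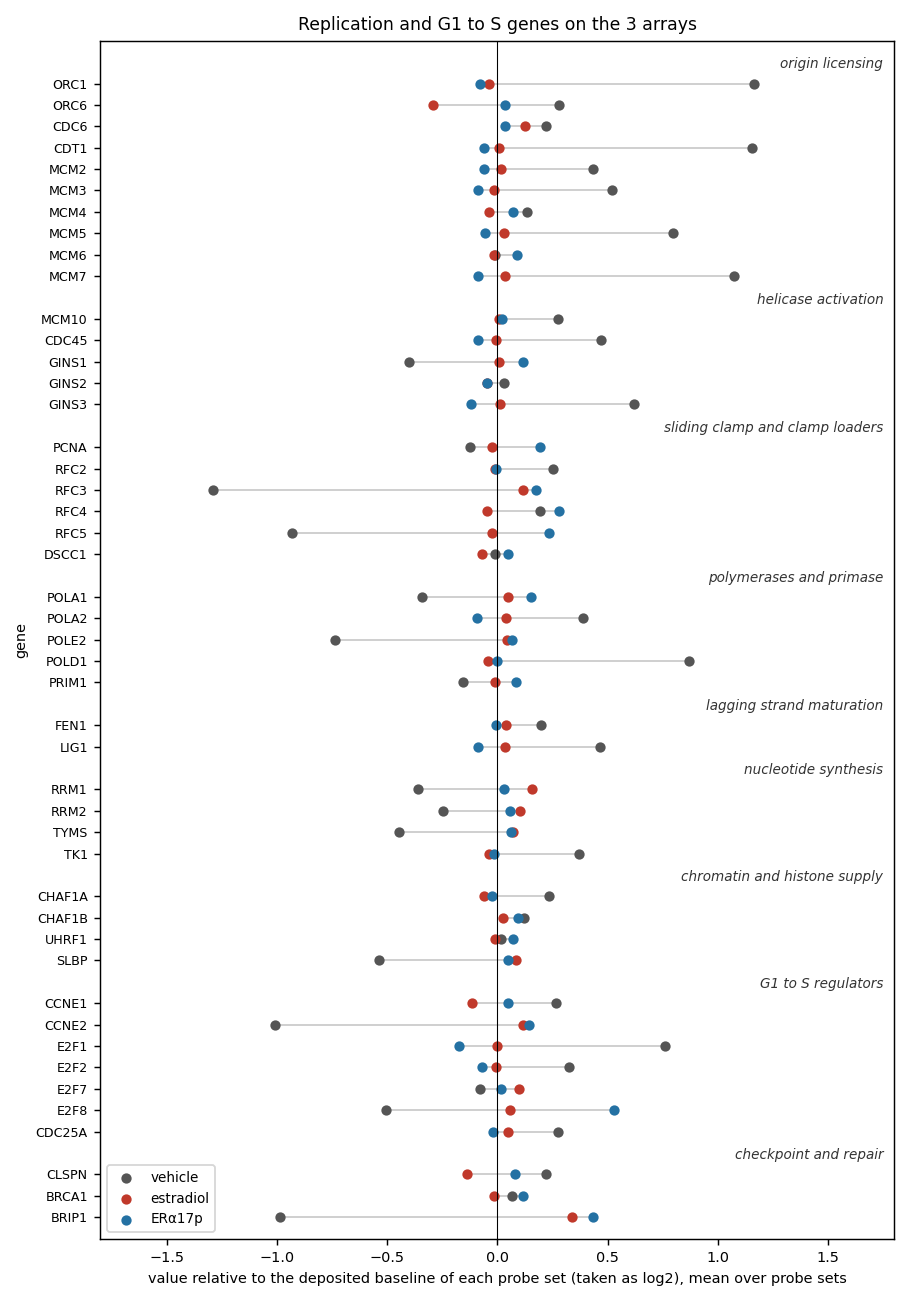
Values of the 46 genes on the 3 arrays, relative to the deposited baseline and taken as log2 (x axis), with genes grouped by role (y axis). Each point is 1 array and the mean over the probe sets of a gene, and the grey line joins the lowest and highest array. The estradiol and ERα17p points mostly lie close to 0, while vehicle points reach from −1.29 (RFC3) to 1.16 (ORC1).

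The spread of these genes lay mainly in the vehicle array. Over the 46 genes the SD of the values was 0.559 on the vehicle array, 0.090 with estradiol and 0.134 with ERα17p, beside 0.371, 0.130 and 0.139 over all genes. The vehicle value was above both treated values for 26 genes and below both for 15. That makes 41 of 46 genes with the vehicle value outside the range of the treated arrays, where 81.2% of all genes had it there.

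The licensing genes, which load the helicase at origins in G1, had positive differences in 0 of 10 cases with estradiol and in 1 of 10 with ERα17p, where 49.4% and 50.1% of all genes did. Their median was −0.55 in both comparisons, and 4 were at least 1.5-fold lower with estradiol and 5 with ERα17p, with 0 higher in either, beside the 8.42% and 8.76% of all genes that were lower. ORC1, the largest subunit of the origin recognition complex, had values of 1.16 on the vehicle array, −0.04 with estradiol and −0.08 with ERα17p. The vehicle array was the high one, and the differences of ORC1 were −1.20 and −1.24 (1 probe set). CDT1, the loading factor that geminin inhibits, had values of 1.16, 0.01 and −0.06 in the same order. It differed by −1.15 ± 0.02 (SD, n = 2) with estradiol and by −1.22 ± 0.34 with ERα17p, and both of its probe sets were past the threshold in each comparison. Among the licensing genes, CDT1, MCM2, MCM7 and ORC6 were measured only by probe sets of kinds open to cross-hybridisation.

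Within the MCM2 to MCM7 helicase, whose 6 subunits form 1 ring, the differences were unequal. MCM7 had values of 1.07 on the vehicle array, 0.04 with estradiol and −0.09 with ERα17p, and differences of −1.04 ± 0.33 (SD, n = 2) and −1.16 ± 0.35. MCM5 had values of 0.80, 0.03 and −0.06, and differences of −0.77 ± 0.04 (SD, n = 2) and −0.85 ± 0.09. Both subunits were highest on the vehicle array, with every probe set past the threshold. MCM3 had values of 0.52, −0.02 and −0.09, and its differences of −0.54 and −0.61 (1 probe set) lay on either side of the threshold. MCM2 differed by −0.42 and −0.49, below the threshold in size. MCM6 had values of −0.01, −0.02 and 0.09, nearly equal on all arrays. MCM4 had a mean difference of −0.17 ± 0.51 (SD, n = 5) with estradiol, and its probe sets lay on both sides of 0, from −0.77 to 0.56. The 2 remaining licensing genes were ORC6, with differences of −0.57 and −0.24, and CDC6, the loader ATPase, with differences of −0.09 ± 0.50 (SD, n = 2) and −0.19 ± 0.38.

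Of the 5 genes that activate the loaded helicase, only GINS3 passed 1.5-fold. It was lower on both treated arrays, as 6.7% of all genes were. GINS3 had values of 0.62 on the vehicle array, 0.01 with estradiol and −0.12 with ERα17p. Its differences were −0.61 ± 0.17 (SD, n = 2) and −0.74 ± 0.04. CDC45, which travels with the MCM ring at the fork, had values of 0.47, −0.01 and −0.09, with differences of −0.48 and −0.56 (1 probe set), on the same side but under the threshold. GINS1 lay on the other side, with values of −0.40, 0.01 and 0.11 and differences of 0.41 and 0.52. GINS2 differed by −0.07 ± 0.25 (SD, n = 3) and −0.08 ± 0.11. The subunits of the 1 GINS complex thus lay on both sides of the vehicle value. MCM10, a scaffold of the fork, differed by −0.27 ± 0.60 (SD, n = 3) and −0.25 ± 0.53, with 1 probe set at −0.96 and 2 at 0.12 and 0.04 in the estradiol comparison.

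The clamp loader subunits gave positive differences for RFC3 and RFC5 and small ones for RFC2 and RFC4. RFC5 had values of −0.93 on the vehicle array, −0.02 with estradiol and 0.23 with ERα17p. The vehicle array was the low one. RFC5 was higher by 0.91 ± 0.34 (SD, n = 3) with estradiol and 1.17 ± 0.48 with ERα17p, and all 3 probe sets were past the threshold in each. RFC3 had values of −1.29, 0.11 and 0.17 and differences of 1.40 ± 1.52 (SD, n = 3) and 1.46 ± 1.34. Its probe sets differed widely, at 0.18, 0.92 and 3.10 with estradiol and at 0.34, 1.10 and 2.95 with ERα17p, so they agree in sign but not in size. Without the last, which is of a kind open to cross-hybridisation, the gene differed by 0.55 with estradiol, under the threshold, and by 0.72 with ERα17p. RFC2 differed by −0.27 ± 0.01 (SD, n = 2) and −0.26 ± 0.04, and RFC4 by −0.24 and 0.09 (1 probe set). PCNA, the clamp itself, had values of −0.12, −0.03 and 0.19, with differences of 0.10 and 0.32. DSCC1, part of an alternative clamp loader, differed by −0.06 ± 0.20 (SD, n = 2) and 0.06 ± 0.11.

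Among the polymerase genes, POLD1 and POLE2 lay on opposite sides of the vehicle array. POLD1, the catalytic subunit of polymerase δ, had values of 0.87 on the vehicle array, −0.04 with estradiol and −0.003 with ERα17p. Its differences were −0.91 and −0.87 (1 probe set). POLE2, the second subunit of polymerase ε, had values of −0.74, 0.04 and 0.06 and was higher by 0.78 and 0.80 (1 probe set). For both genes the vehicle array stood alone. The polymerase α complex starts each fragment, and its subunits also differed in sign, all under 1.5-fold as gene means. The catalytic subunit POLA1 differed by 0.39 and 0.49 (1 probe set). The B subunit POLA2 differed by −0.35 ± 0.45 (SD, n = 3) and −0.48 ± 0.47. Its probe sets ran from −0.84 to 0.03 with estradiol. PRIM1, the primase of the complex, differed by 0.15 and 0.24. The genes that finish the lagging strand were under the threshold, with differences for the ligase LIG1 of −0.43 and −0.55 and the flap nuclease FEN1 of −0.16 ± 0.50 (SD, n = 2) and −0.20 ± 0.41.

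Of the nucleotide synthesis genes, 0 of 4 passed 1.5-fold in either comparison. Of all genes, 6.48% were higher and 8.42% lower with estradiol, and 6.88% and 8.76% with ERα17p. A count of 0 in 4 is near that background. TYMS, which makes thymidylate, had values of −0.45 on the vehicle array, 0.07 with estradiol and 0.06 with ERα17p. It differed by 0.52 ± 0.56 (SD, n = 3) and 0.51 ± 0.83. The large subunit of ribonucleotide reductase, RRM1, differed by 0.52 ± 1.07 (SD, n = 2) and 0.39 ± 1.002, from 1 probe set at 1.27 and another at −0.24 with estradiol. The small subunit RRM2 differed by 0.35 ± 0.14 (SD, n = 2) and 0.30 ± 0.09. Thymidine kinase TK1, of the salvage route, had the opposite sign, with differences of −0.41 ± 0.03 (SD, n = 2) and −0.39 ± 0.02.

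SLBP, which binds the stem-loop at the end of histone messages, was the only 1 of the 4 chromatin group genes past the threshold. It was higher on both treated arrays, as 4.98% of all genes were. Its values were −0.54 on the vehicle array, 0.09 with estradiol and 0.05 with ERα17p. It was higher by 0.62 and 0.59 (1 probe set), the latter just inside the threshold, and its only set is of a kind open to cross-hybridisation. The chromatin assembly factor subunits CHAF1A and CHAF1B differed by −0.29 ± 0.27 (SD, n = 4) and −0.09 with estradiol, and by −0.26 ± 0.32 and −0.03 with ERα17p. UHRF1, which brings DNA methylation to new strands, differed by −0.03 and 0.06.

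The regulators of the G1 to S step also divided. E2F1, an activating factor, had values of 0.76 on the vehicle array, −0.004 with estradiol and −0.17 with ERα17p. Its differences were −0.77 ± 0.0007 (SD, n = 2) and −0.93 ± 0.12, with both probe sets past the threshold. E2F8, an atypical factor that represses E2F targets, had values of −0.51, 0.06 and 0.53. It differed by 0.57 with estradiol, just under the threshold, and by 1.04 with ERα17p (1 probe set), and no 2 of the 3 arrays were close. E2F7, its close relative, differed by 0.18 ± 0.33 (SD, n = 2) and 0.09 ± 0.01. E2F2 had a mean of −0.33 ± 0.88 (SD, n = 3) with estradiol, made of probe sets at −1.32, −0.04 and 0.36.

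Cyclin E is encoded by 2 genes, and they differed in sign. CCNE2 had values of −1.01 on the vehicle array, 0.11 with estradiol and 0.15 with ERα17p, and differences of 1.12 ± 1.70 (SD, n = 2) and 1.15 ± 1.47. The difference rests on 1 probe set, at 2.32 and 2.19, of a kind open to cross-hybridisation. The other differed by −0.08 and 0.11, and without the first the estradiol difference had the opposite sign. CCNE1 had values of 0.27, −0.12 and 0.05 and differences of −0.38 ± 0.11 (SD, n = 2) and −0.22 ± 0.41. CDC25A, the phosphatase that frees the cyclin E kinase, differed by −0.22 ± 0.44 (SD, n = 3) and −0.29 ± 0.49.

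Of the checkpoint and repair genes, BRIP1, a helicase that works with BRCA1, had values of −0.99 on the vehicle array, 0.34 with estradiol and 0.43 with ERα17p. It was higher by 1.33 ± 1.33 (SD, n = 2) and 1.42 ± 1.16, from probe sets at 2.27 and 0.38 with estradiol and at 2.24 and 0.60 with ERα17p. BRCA1 itself differed by −0.08 ± 0.28 (SD, n = 2) and 0.05 ± 0.15. CLSPN, the claspin adaptor of the replication checkpoint, differed by −0.36 ± 0.57 (SD, n = 4) and −0.14 ± 0.41.

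**Figure D2:**
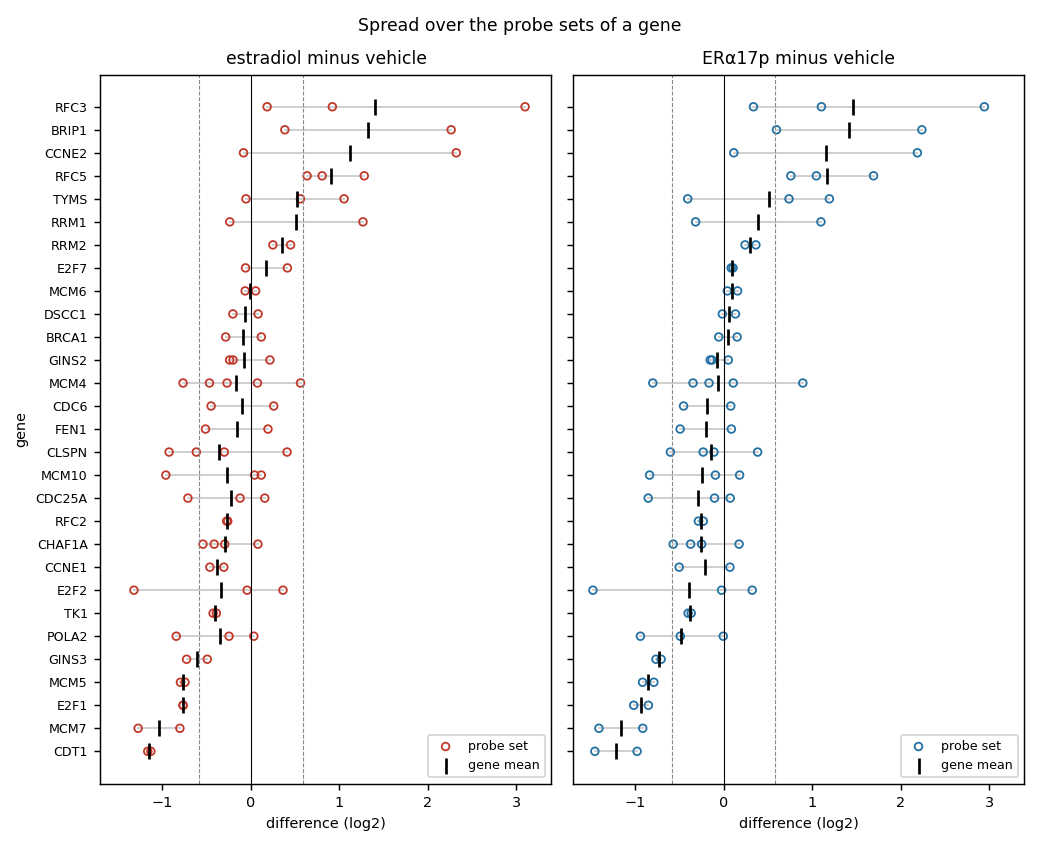
Differences from vehicle on the log2 scale (x axis) for the 29 genes with more than 1 probe set (y axis), with estradiol on the left and ERα17p on the right. Circles are probe sets, black marks are gene means and dashed lines mark 1.5-fold. CDT1, MCM7, E2F1, MCM5 and RFC5 have every probe set past the line in both panels, whereas RFC3, CCNE2 and BRIP1 rest mainly on 1 set.

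The probe sets of a gene agreed in sign for 12 of the 29 genes with more than 1 set (41.4%) with estradiol and for 15 of 29 (51.7%) with ERα17p. Over all genes with more than 1 set these shares were 44.3% and 45.4%. The median SD over the probe sets of a gene was 0.33 with estradiol for the 29 genes and 0.29 for all. With ERα17p it was 0.38 for the 29 genes and 0.28 for all. Among called genes with more than 1 probe set, every set was past 1.5-fold for 4 of 5 that were lower with estradiol and for 1 of 4 that were higher, RFC5. With ERα17p it was 5 of 5 lower and 2 of 4 higher, RFC5 and BRIP1. The other called genes had 1 probe set each, which gives no such check. The matching shares over all called genes on the arrays were not computed, so these counts have no background.

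Between the treated arrays, at the same molar dose and time, 0 of 46 replication genes were at least 1.5-fold apart in either direction. Of all genes, 0.521% were higher with ERα17p and 0.607% lower, so a count of 0 is near the background. Within 25% of each other were 93.5% of the 46 genes and 91.3% of all genes. The differences ran from −0.17 for E2F1 to 0.47 for E2F8, with a median of 0.02 beside 0.006 over all genes, and 25 of 46 were above 0, or 54.3% against 51.6% of all genes. E2F8 had values of 0.06 with estradiol and 0.53 with ERα17p. RFC4 had values of −0.05 and 0.28, a difference of 0.33, and ORC6 of −0.29 and 0.04, also 0.33 apart, each from 1 probe set. The only probe set of ORC6 is of a kind open to cross-hybridisation. E2F8, RFC4 and ORC6, 3 of 46 genes, were at least 25% higher with the peptide than with estradiol, near the background of 4.67% of all genes. For 0 genes was estradiol the higher by that much, against 4.01% of all genes. The 6 clamp and clamp loader genes had positive differences in 6 of 6 cases, where 51.6% of all genes did, with a median of 0.17. Among them were RFC5 with 0.26 ± 0.15 (SD, n = 3) and PCNA with 0.22 (1 probe set). RFC2 at 0.008 ± 0.047 (SD, n = 2) and RFC3 at 0.06 ± 0.19 (SD, n = 3) each had 1 probe set below 0. The 3 checkpoint and repair genes were also all above 0, but BRIP1 and CLSPN each had 1 probe set below 0. The licensing genes had a median of −0.07, and 3 of 10 were above 0. This was the 1 pair of agents compared, it does not use the vehicle array, and with 1 array each no interval of the difference can be given, so the values do not show that the agents act alike.

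**Figure D3:**
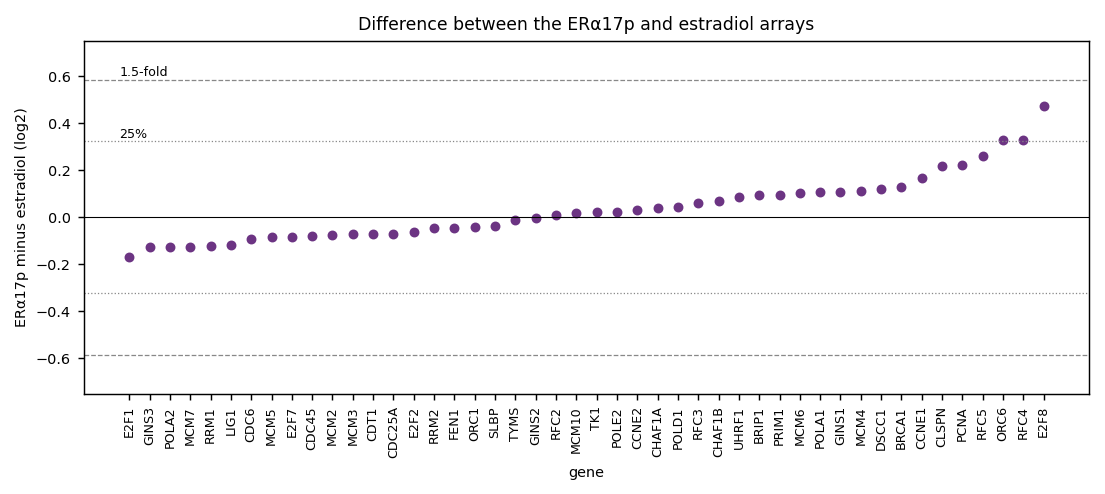
Difference between the ERα17p and estradiol arrays on the log2 scale (y axis) for each of the 46 genes, in order (x axis). Dashed lines mark 1.5-fold and dotted lines a difference of 25%. Values run from −0.17 (E2F1) to 0.47 (E2F8), and 0 genes reach the 1.5-fold lines.

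Other genes of the pathway also lay on both sides of the vehicle array. Of 36 other replication fork genes, 4 were higher and 5 lower with estradiol, and 4 and 6 with ERα17p, with medians of 0.06 and 0.15. As shares, 11.1% were higher and 13.9% lower with estradiol, beside 6.48% and 8.42% of all genes. With ERα17p these were 11.1% and 16.7%, beside 6.88% and 8.76%. POLD2 and POLE, further subunits of polymerases δ and ε, differed by −0.96 and −0.98 with estradiol (1 probe set each). With ERα17p they differed by −1.02 and −0.84, on the side of POLD1. POLE2, of the same polymerase as POLE, lay on the other side, at 0.78 and 0.80. RNASEH2A, a subunit of the nuclease that removes RNA from DNA, differed by −0.98 and −0.92. Topoisomerase TOP2A differed by 0.98 ± 0.28 (SD, n = 3) and 1.09 ± 0.27. PRIM2, the partner of PRIM1 in primase, was higher with ERα17p than with estradiol by 0.61 (1 probe set).

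Of 26 other E2F and S phase targets 21 were measured, with 3 higher and 2 lower with estradiol and 4 and 2 with ERα17p. As shares, 14.3% were higher and 9.52% lower with estradiol, beside 6.48% and 8.42% of all genes. With ERα17p these were 19.0% and 9.52%, beside 6.88% and 8.76%. Cyclin A, encoded by CCNA2, differed by 1.01 ± 0.59 (SD, n = 2) and 1.05 ± 0.62, and the histone chaperone ASF1B by −0.77 and −0.80. Of 32 G1 control genes 31 were measured, with 6 higher and 1 lower with estradiol and 6 and 3 with ERα17p. Their shares were 19.4% and 3.23% with estradiol, and 19.4% and 9.68% with ERα17p, beside the same shares of all genes. CDKN1A, the kinase inhibitor p21, differed by −1.11 and −1.27, and RBL2, a relative of the retinoblastoma protein, by 1.19 ± 0.54 (SD, n = 2) and 1.26 ± 0.14. MYC, a growth-promoting transcription factor, differed from vehicle by 2.07 with estradiol and 0.38 with ERα17p. CDKN1B, the inhibitor p27, differed by −0.03 and 0.52.

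The 36 mitotic genes, set beside the replication genes as the later part of the cell cycle programme, had mostly positive differences. Here 23 were higher and 1 lower with estradiol, and 22 and 1 with ERα17p, with medians of 0.71 in both. As shares, 63.9% of mitotic genes and 13.0% of replication genes were at least 1.5-fold higher with estradiol, beside 6.48% of all genes. The E2F letters stood in 2 of 30 matched mitotic promoters (6.67%) and CCAAT in 23 of 30 (76.7%). The difference between these lists was described and not tested.

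**Figure D4:**
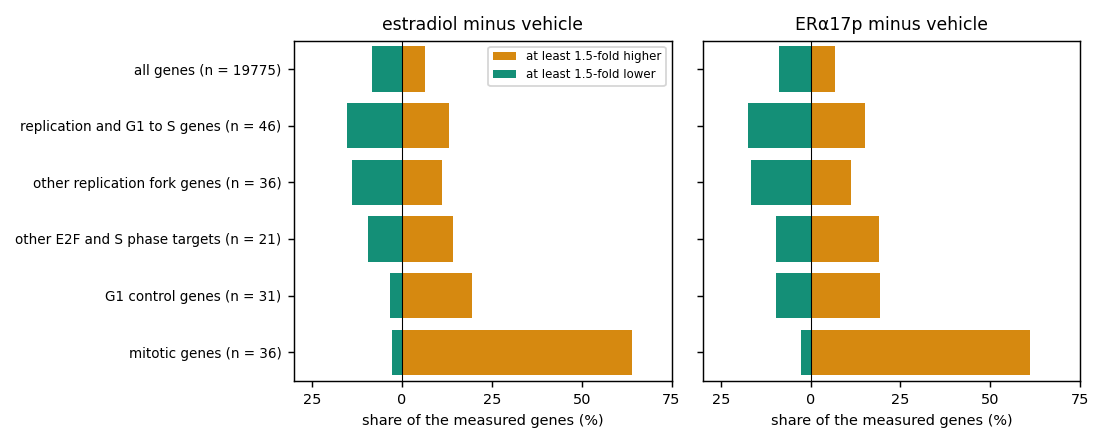
Share of measured genes in each list (y axis) that were at least 1.5-fold higher (right of 0) or lower (left of 0) than vehicle, in percent (x axis), for estradiol and ERα17p. The mitotic genes stand at 63.9% higher with estradiol, against 13.0% for the replication and G1 to S genes and 6.48% for all genes.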

How the data were processed

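Biotin-labelled RNA of T47D cells was measured on 3 Affymetrix arrays, 1 per group, per the labels' protocols. The deposited values, read here as log2, were made by the authors with RMA, per the submitters' processing notes. The RMA version, log base and baseline of each probe set are stated in none of the sources used here. Base 2 was taken because RMA gives it. Of 54675 probe sets, 62 were controls, 41091 had 1 gene symbol, 1801 several and 11721 none in the platform annotation, and only those with 1 were used.

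A gene's difference is the mean over its probe sets, computed for all 19775 genes. With 1 array per group no test was run. Genes were counted at 1.5-fold and set beside all genes. Group names came from the sample titles. The members, roles, other lists, motifs and the rule for named genes (all members, and up to 4 genes of each other list with the largest difference) were chosen with earlier results of these data known. Precision is limited by having 3 arrays, and no absolute signal was kept. The gene computation was tested on simulated data. Alternatives were other thresholds, the median of the probe sets, leaving out probe sets that can cross-hybridise (_x_at, _s_at), centred differences, agreement of all probe sets, the mean and probe sets as the unit. Python 3.11.15, numpy 2.4.6, pandas 2.3.3 and matplotlib 3.10.9 were used.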

Additional observations from a re-analysis of the deposited data

How the results depend on the processing

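The counts at 1.5-fold depended on the threshold, and that of genes higher with estradiol also on which probe sets were kept or had to pass. Taking the median of the probe sets in place of their mean changed the counts little. With estradiol, 2-fold gave 3 higher and 3 lower genes, and a 25% difference 12 and 17. With ERα17p, 2-fold gave 3 lower genes, and a 25% difference 11 higher and 14 lower. Between the treated arrays 3 genes were at least 25% higher with ERα17p. The count of genes higher with estradiol was 3 when every probe set had to pass, and 3 among the 37 genes that remain without probe sets that can cross-hybridise (identifiers ending in _x_at or _s_at). Without those sets CCNE2 had the opposite sign with estradiol, at −0.0825, since the set that carried its difference was removed. The other counts stayed within 1.5 times of their values under the alternatives run. Apart from the other thresholds, the matching shares over all genes were not computed for these alternatives, so these counts have no background. The list medians kept their sign but moved by a large part of their size: with estradiol from −0.17 to −0.08 without the sets that can cross-hybridise and to −0.07 as a mean, and with ERα17p from −0.11 to −0.02 without those sets and to −0.04 as a mean. Without those sets 9 genes had no value, among them CDT1, MCM7 and SLBP, and RFC3 was under the threshold with estradiol, at 0.55. Centring on the median over all genes took SLBP under the threshold with ERα17p. No paired analysis was possible because each group had 1 array. Absolute signal, and with it any limit from dim probe sets, could not be assessed.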
